A study of Mus musculus with 6 samples.

Results

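The amino acid transporter genes examined here were the protein-coding genes of the count table whose GENCODE M21 symbol begins with Slc1a, Slc3a, Slc6a, Slc7a, Slc36a, Slc38a or Slc43a followed by a number. There were 64 of them among 55450 genes in all, of which 21951 are protein-coding. Kidney mRNA was sequenced in 3 mice of the day-0 group and 3 mice of the day-21 group. All 6 were wild-type C57BL/6J males, bought at 7 weeks of age and kept for 1 week before the study began. The day-21 mice received adenine at 0.16 g/kg mixed with potassium oxonate at 2.4 g/kg by oral gavage each day, a mixture that raises uric acid and injures the kidney. The day-0 mice carry the label control with 20% PEG, and the design text equates control with day 0. The model is a chemical injury of the whole kidney, in which the effects of adenine and of uric acid cannot be told apart. Each group was killed on its own day, so the day-21 mice were also older and had been gavaged daily. Only the day-0 label names PEG. Age, gavage and vehicle cannot be told apart from the chemicals either. One member, Slc7a6os, matched by symbol only and is not a transporter.

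Filtered amino acids are taken back almost completely by the proximal tubule. Carriers on the luminal side, facing the urine, bring them into the cell with sodium, protons or in exchange, and carriers on the basolateral side pass them on to the blood. Several work only as pairs: the light chains Slc7a9 and Slc7a13 need the heavy chain Slc3a1 (rBAT) at the luminal side, and Slc7a7 and Slc7a8 need Slc3a2 (4F2hc) at the basolateral side. Other members feed growing cells, empty the lysosome, move osmolytes such as taurine and betaine, or clear transmitters around neurons.

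RefSeq promoters (GRCm38.p6) were given for 46 of the 64 genes and were searched on both strands for 3 sets of letters, in which N is any base. The letters of the C/EBP-ATF response element, the site through which Atf4 acts on amino acid response genes, are TGATGNAA, and the motifs of the tubule factors HNF1 and HNF4 were read as GTTAATNAT and CAAAGTCCA. TGATGNAA was found in 4 of the 46 member genes (8.70%), Slc1a4, Slc6a21, Slc7a11 and Slc7a7, against 4.51% of all 27025 genes with a promoter. CAAAGTCCA was found in 1 of 46, Slc3a1, against 0.555% of all genes. GTTAATNAT was found in 0 of 46 against 0.940% of all genes, which says only that these letters are not in those windows. The 3 stretches below belong to genes described later, the luminal heavy chain, a basolateral light chain and a cystine carrier, and each is written 5′ to 3′ on the gene's strand with the matched letters in capitals.
Slc3a1, HNF4 letters, chr17:85028268-85028346, plus strand: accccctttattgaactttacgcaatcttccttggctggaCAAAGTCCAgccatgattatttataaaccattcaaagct
Slc7a7, C/EBP-ATF letters, chr14:54418038-54418125, minus strand: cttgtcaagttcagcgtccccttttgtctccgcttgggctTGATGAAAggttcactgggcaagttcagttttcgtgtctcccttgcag
Slc7a11, C/EBP-ATF letters on both strands, chr3:50443653-50443679, minus strand: TGATGCAAacctggagaatTTGCATCA
The Slc3a1 match ran from base -39 to base -31 before the RefSeq start and the printed Slc7a7 match from -141 to -134. The pair in Slc7a11 ran from -66 to -59 and from -47 to -40. Slc7a7 holds a further match, at chr14:54417938-54417945. That match ran from -1 to 7 across the same RefSeq start as the printed one, and from -243 to -236 of another. A match of letters is a description and does not show that a factor binds.

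The libraries held between 10963849 and 14333311 counts, so that 3 counts, taken as the detection floor, stood for 0.179 to 0.309 CPM. CPM is a gene's count relative to the TMM-scaled size of its library, and the floor covers counting error only. The 64 genes together took 0.521% to 0.573% of the counts on day 0 and 0.362% to 0.401% on day 21, and mitochondrially encoded genes took 9.39% to 9.86% and 3.82% to 4.42%. DEGs were genes with an adjusted p under 0.05 (edgeR's quasi-likelihood test, Benjamini-Hochberg over all genes tested) and a fold over 1.5, the thresholds of the study. Of 16592 genes tested, 3249 were DEGs higher on day 21 and 2572 were lower. Scaling by library size alone moved the median of all genes by 0.39 on the log2 scale, and with it 81.7% of DEGs were higher on day 21 in place of 55.8%. The labels give each sample its own code, and each was read as a separate mouse. They do not say how the samples were taken, so p-values measure the spread between these samples, which may be partly technical. In whole kidney, fewer cells of a type and less RNA per cell cannot be told apart.

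Of the 64 genes, 45 had enough counts to be tested. On day 21, 19 of them were lower and 6 were higher, and 20 were not called. Across all genes tested, 35.1% were DEGs, 15.5% lower and 19.6% higher. The counts of each list below stand against these shares. The groups did not overlap in 31 of the 45 genes, and in 57.1% of all genes tested. The median log2 fold change was -0.28 over the members and 0.032 over all genes tested, with members ranging from -3.79 to 1.87. With library size alone as the scaling, 15 members were higher and 9 lower, and the members' median changed sign to 0.11. By family, 8 of 12 tested Slc6 genes were lower and 0 higher, whereas 4 of 12 tested Slc7 genes were lower and 3 higher. The plot of fold changes by role shows the members sorted into the role lists used below.

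**Figure D1:**
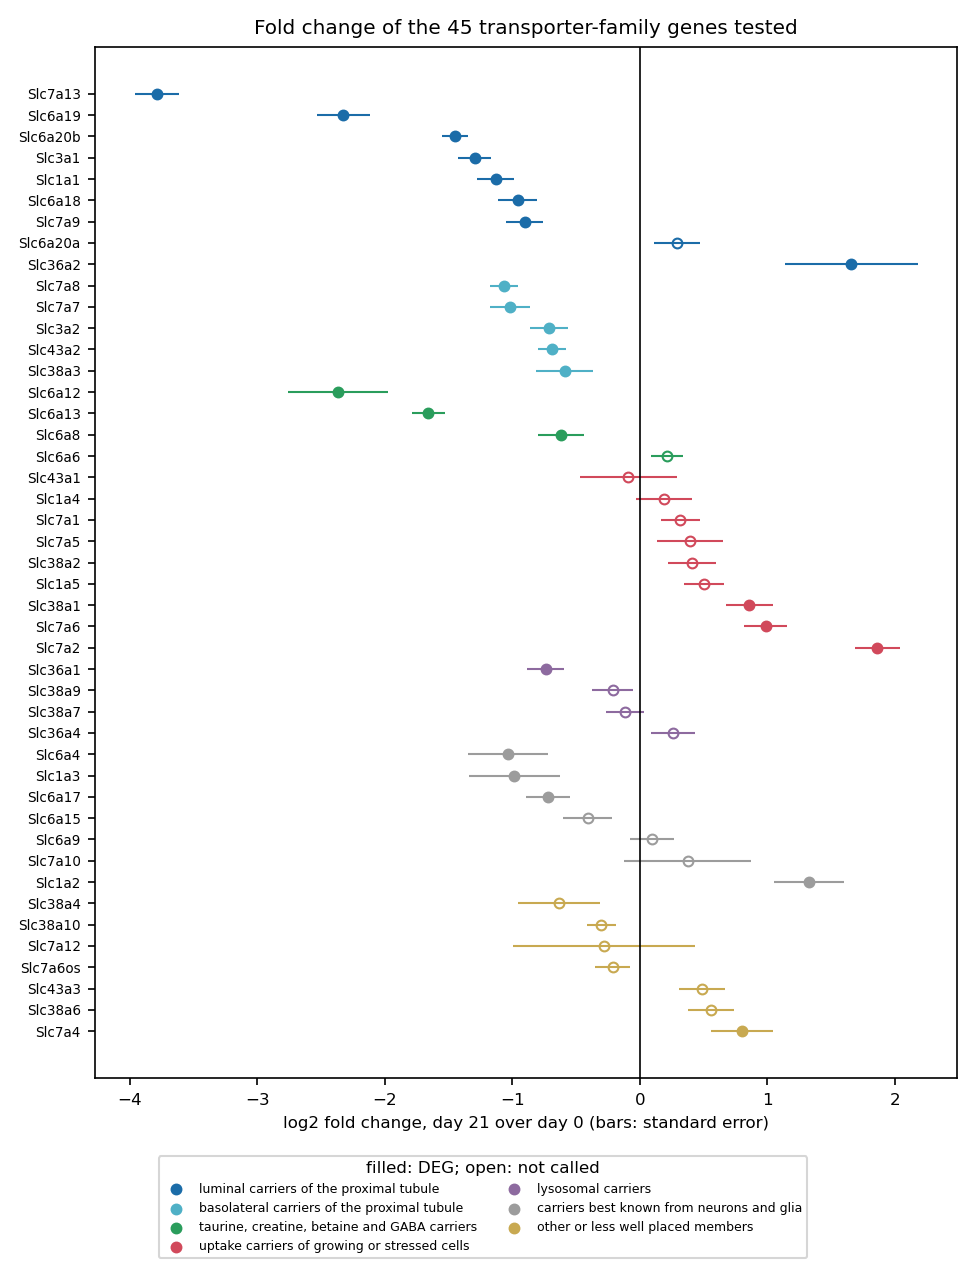
Log2 fold change of day 21 over day 0 (x axis) for the 45 tested members (y axis), coloured by role, with standard errors as bars; filled points are DEGs and open points were not called. The luminal and basolateral carriers lie mostly left of 0, with Slc7a13 at -3.79, and the uptake carriers mostly right of 0, with Slc7a2 at 1.87.

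Luminal carriers of the proximal tubule fell on day 21 in 7 of 9 members, with 1 higher and 1 not called, and the median log2 fold change of the list was -1.13. The 5 largest falls among them ran from -1.13 to -3.79. None of the 7 falls was lost when 1 mouse was left out, but with library size alone Slc6a18 (-0.57) and Slc7a9 (-0.51) were under the fold threshold. The 10 proximal tubule markers fixed for comparison (Lrp2, Cubn, Slc34a1, Hnf4a and others) were all lower too, with log2 fold changes from -2.47 to -1.28. Their summed level ran from 12740 to 14082 CPM on day 0 and from 2836 to 3616 CPM on day 21, and none was at 0. Their part in the fall of the carriers was not tested. Lower markers were not confined to the proximal tubule. In the thick ascending limb list 2 of 4 markers were lower and 1 was higher. In the distal tubule and podocyte lists 3 of 4 were lower, in the collecting duct list 2 of 4 and in the endothelium list 1 of 4.

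Slc7a13 (ENSMUSG00000041052.8, chr4:19818725-19842218, plus strand, GRCm38) encodes AGT1, the light chain that carries cystine, aspartate and glutamate in the last stretch of the proximal tubule. It stood at 798, 1024 and 949 CPM in the day-0 mice and at 60.3, 57.9 and 82.0 CPM in the day-21 mice. The groups were far apart, with the lowest day-0 mouse well above the highest day-21 mouse. The mean was 924 ± 115 CPM (SD, n = 3) on day 0 and 66.7 ± 13.2 CPM on day 21, a 13.8-fold fall. The log2 fold change was -3.79 (SE 0.17, adjusted p = 6.3e-07, edgeR), the lowest of the 45 members tested.

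Slc6a19 (ENSMUSG00000021565.16, chr13:73679745-73704865, minus strand) encodes B0AT1, the main sodium-driven carrier of neutral amino acids at the brush border and the gene of Hartnup disorder. Its levels were 500, 310 and 285 CPM on day 0 and 82.1, 64.5 and 71.8 CPM on day 21. Day-0 mouse 1 lay well above the other two, and the groups did not overlap. Its log2 fold change was -2.33 (SE 0.21, adjusted p = 1.5e-05, edgeR), a 5.02-fold fall. Its neighbour Slc6a18 (chr13:73661752-73678023, same strand), a carrier of glycine and other neutral amino acids, was more abundant. Slc6a18 stood at 706, 841 and 649 CPM on day 0 and at 438, 316 and 376 CPM on day 21, with a log2 fold change of -0.96 (SE 0.15, adjusted p = 0.00050, edgeR).

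The heavy chain Slc3a1, mutated with Slc7a9 in cystinuria, was at 864, 945 and 866 CPM on day 0 and at 416, 314 and 360 CPM on day 21. The day-0 mice were close to each other and the groups did not overlap. The log2 fold change was -1.29 (SE 0.13, adjusted p = 2.8e-05, edgeR). Of its exon bases, 26.5% lie in exons of Prepl on the opposite strand, which was lower as well (-1.11), and without a stated strand setting the reads of such a stretch cannot be assigned. The light chain Slc7a9, which forms the cystine and dibasic amino acid exchanger with Slc3a1, stood at 137, 120 and 93.5 CPM against 63.6, 64.8 and 58.5 CPM. Its log2 fold change was -0.90 (SE 0.14, adjusted p = 0.00052, edgeR) and its ratio to the other light chain, Slc7a13, is given further on.

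Slc1a1, the glutamate and aspartate carrier EAAT3, stood at 311, 356 and 295 CPM on day 0 and at 174, 124 and 142 CPM on day 21. It fell by 1.13 on the log2 scale (SE 0.14, adjusted p = 0.00012, edgeR), and 31.9% of its exon bases lie in 4430402I18Rik on the opposite strand, which was also lower (-1.20). The imino acid carrier locus on chromosome 9 holds a pair of neighbouring genes, of which 1 was called. Slc6a20b (chr9:123590800-123632565) stood at 303, 331 and 313 CPM on day 0 and at 119, 112 and 115 CPM on day 21, with little spread within a group. It fell by 1.45 on the log2 scale (SE 0.10, adjusted p = 3.8e-06, edgeR). Of its exon bases, 21.1% lie in Sacm1l on the opposite strand, which was not called (-0.25).

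Slc6a20a (chr9:123634770-123678885), the other copy, stood at 18.6, 24.7 and 15.1 CPM on day 0 and at 26.8, 22.3 and 22.8 CPM on day 21. The groups overlapped and its log2 fold change was 0.29 (SE 0.18, adjusted p = 0.22, edgeR), and it was called higher with library size alone (0.69). It shares sequence with Slc6a20b, since 28.5% of the 50-base words of its longest transcript occur in other genes, mainly that one. Slc36a2, a proton-coupled carrier of glycine and proline, was near the floor with 4, 2 and 4 counts on day 0 and 18, 15 and 15 counts on day 21. It was called higher (log2 fold change 1.66, SE 0.52, adjusted p = 0.025, edgeR), but passed the filter only through its day-21 counts. The call was lost in 6 of 14 alternatives, with DESeq2 (adjusted p = 0.076), without a filter, and without day-0 mouse 2 or any 1 of the day-21 mice.

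**Figure D2:**
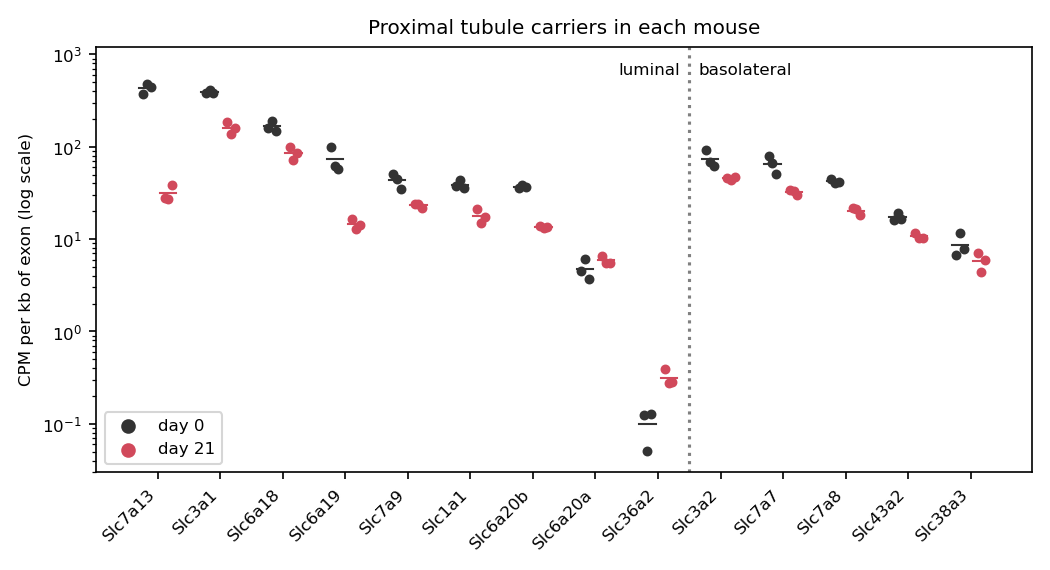
Level of each luminal and basolateral carrier of the proximal tubule in CPM per kb of exon (y axis, log scale), with 1 point per mouse and a line at the mean of the 3 mice of a group. The day-21 points lie below the day-0 points for all genes shown except Slc6a20a and Slc38a3, whose groups overlap, and Slc36a2, which lies above.

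Per kb of exon, a rough scale for setting genes side by side, the order of the levels changed. The length is that of all annotated exons of a gene, not of the transcripts made in kidney. Bases shared with opposite-strand genes bear on it as well. On day 0 the highest members were Slc7a13, at 431 CPM per kb, and Slc3a1, at 393 CPM per kb. These did not differ beyond their spread, as Slc7a13 ran from 373 to 478 and Slc3a1 from 380 to 416 CPM per kb. Slc6a18 followed at 166 CPM per kb, then Slc3a2 at 74.3 and Slc6a19 at 73.0, which overlapped. On day 21 Slc3a1 was first at 160 CPM per kb, ahead of Slc6a18 at 85.2 and the taurine carrier Slc6a6 at 60.2. Slc7a13 was the seventh at 31.2 CPM per kb, overlapping its neighbours Slc7a7 (32.4) and Slc38a10 (30.5).

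Basolateral carriers of the proximal tubule fell in 5 of 5 members, with a median log2 fold change of -0.71 and a range from -1.07 to -0.59. With library size alone, Slc3a2 (-0.32), Slc43a2 (-0.30) and Slc38a3 (-0.20) were not called. Slc7a8, the LAT2 light chain for neutral amino acids, stood at 224, 203 and 209 CPM on day 0 and at 108, 105 and 91.2 CPM on day 21. It fell by 1.07 on the log2 scale (SE 0.11, adjusted p = 3.5e-05, edgeR). Slc7a7 (ENSMUSG00000000958.10, chr14:54369442-54417780, minus strand), the y+LAT1 light chain that is mutated in lysinuric protein intolerance, stood at 265, 220 and 167 CPM against 113, 109 and 100.5 CPM. The day-0 mice were spread and the day-21 mice were not, and the log2 fold change was -1.02 (SE 0.16, adjusted p = 0.00049, edgeR).

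The heavy chain Slc3a2, which also serves light chains outside the proximal tubule, stood at 325, 242 and 219 CPM on day 0 and at 161, 153 and 166 CPM on day 21. Its log2 fold change was -0.71 (SE 0.15, adjusted p = 0.0029, edgeR). Without day-0 mouse 1, the highest, it was -0.55 and under the fold threshold. Slc43a2, the LAT4 uniporter of branched-chain amino acids and phenylalanine, stood at 164, 190 and 166 CPM against 116, 103 and 104 CPM, a fall of 0.69 (SE 0.11, adjusted p = 0.00060, edgeR). Slc38a3, the SNAT3 carrier that takes up glutamine for ammonia production, stood at 35.3, 61.4 and 41.2 CPM on day 0 and at 36.9, 23.3 and 31.7 CPM on day 21. Its groups overlapped, and its log2 fold change of -0.59 (SE 0.22, adjusted p = 0.04995, edgeR) was just past both thresholds. The call was lost in 7 of 15 alternatives, among them the replicate block (adjusted p = 0.068) and the fits without day-0 mouse 2 (-0.32), day-21 mouse 2 (-0.43) or day-21 mouse 3 (-0.61).

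Among uptake carriers of growing or stressed cells, 3 of 9 tested members were higher, 0 were lower and 6 were not called. The share higher was 33.3%, against 19.6% of all genes tested. The median log2 fold change of the list was 0.41. Slc7a2 (ENSMUSG00000031596.15, chr8:40862396-40922308, plus strand) encodes CAT2, a carrier of arginine and other cationic amino acids that macrophages use. It stood at 8.42, 5.69 and 7.11 CPM on day 0 and at 26.7, 22.8 and 27.5 CPM on day 21, and the groups did not overlap. It rose 3.64-fold, a log2 fold change of 1.87 (SE 0.18, adjusted p = 2.1e-05, edgeR), the highest of the 45 members tested. Slc7a6, the y+LAT2 light chain, had 73, 75 and 66 counts against 196, 218 and 218 counts and rose by 0.99 on the log2 scale (SE 0.17, adjusted p = 0.00087, edgeR). Slc38a1, the glutamine carrier SNAT1, stood at 8.02, 8.24 and 9.17 CPM against 13.3, 18.7 and 14.1 CPM, a log2 fold change of 0.86 (SE 0.19, adjusted p = 0.0036, edgeR). These 3 calls held under each of 15 alternatives, the fits without 1 mouse included.

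The most abundant uptake carrier by counts was Slc38a2, the SNAT2 carrier that cells induce when amino acids run short, at 155, 85.3 and 121 CPM on day 0 and 151, 153 and 174 CPM on day 21. The groups overlapped (log2 fold change 0.41, adjusted p = 0.098, edgeR), and the gene was called only without day-0 mouse 1 (0.61) or with library size alone (0.79). Slc1a5, the glutamine exchanger ASCT2, had an adjusted p of 0.026 but a log2 fold change of 0.50, under the fold threshold, and was called without day-0 mouse 2 (0.69), with upper quartile scaling (0.59) and with library size alone (0.90). Slc7a5, Slc7a1, Slc1a4 and Slc43a1 were not called, with log2 fold changes of 0.40, 0.32, 0.19 and -0.089. Slc43a1 changed sign without day-0 mouse 3, without day-21 mouse 2 or with library size alone, and Slc1a4 without day-0 mouse 1. Slc7a5 (0.79) and Slc7a1 (0.70) were called with library size alone.

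Of the uptake list, 2 members failed the filter on low counts. Slc7a11, the cystine and glutamate exchanger xCT, had 0, 0 and 2 counts on day 0 and 7, 16 and 20 counts on day 21. Against the floor of 3 counts per library this was at least 3.12-fold higher. Slc7a3, the CAT3 carrier of cationic amino acids, had 1, 1 and 0 counts against 8, 11 and 7 counts, at least 1.93-fold higher. Neither bound is a test.

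Leukocyte and fibroblast markers were higher in the same kidneys. All 7 leukocyte markers tested of 8 listed (Ptprc, Cd68, Adgre1 and others) were higher, with a summed level of 127 to 156 CPM on day 0 and 601 to 708 CPM on day 21, and none was at 0. All 5 fibroblast markers (Col1a1, Col1a2, Col3a1, Dcn and Pdgfrb) were higher, from a sum of 166 to 272 CPM to a sum of 1092 to 2030 CPM. Their part in the rise of the uptake carriers was not tested.

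Among lysosomal carriers, 1 of 4 was lower and 0 were higher, and the median log2 fold change of -0.16 changed sign with library size alone (0.23) and was -0.11 without day-21 mouse 3 and -0.25 without day-0 mouse 3. Slc36a1, the proton-coupled PAT1 carrier and the highest of the list, stood at 63.9, 80.4 and 78.1 CPM on day 0 and at 52.4, 37.0 and 44.0 CPM on day 21, a fall of 0.74 on the log2 scale (SE 0.15, adjusted p = 0.0023, edgeR) that was lost with library size alone (-0.35). Slc38a9, the arginine sensor of the mTORC1 pathway, Slc38a7, a glutamine exporter of the lysosome, and Slc36a4 were not called, at -0.21, -0.11 and 0.26. With library size alone, the values of Slc38a9 and Slc38a7 turned positive and Slc36a4 was called higher (0.65).

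Taurine, creatine, betaine and GABA carriers fell in 3 of 4 tested members, with a median log2 fold change of -1.14. Slc6a13, the GAT2 carrier of GABA and taurine in the proximal tubule, stood at 155, 172 and 134 CPM on day 0 and at 51.6, 44.3 and 50.4 CPM on day 21. It fell 3.16-fold, by 1.66 on the log2 scale (SE 0.13, adjusted p = 6.4e-06, edgeR). Its neighbour on chromosome 6, Slc6a12, the betaine carrier BGT1 of the renal medulla, fell by 2.37 (SE 0.39, adjusted p = 0.00076, edgeR), from 29, 44 and 31 counts to 13, 7 and 9 counts. Slc6a12 passed the filter only through its day-0 counts. With a mean of at least 50 counts as the filter, which leaves Slc6a12 out, the list median was -0.59. The creatine carrier Slc6a8 stood at 395, 289 and 226 CPM against 217, 194 and 183 CPM, close to each other at the edge of the groups.

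Its log2 fold change of -0.62 (SE 0.18, adjusted p = 0.019, edgeR) was lost in 7 of 15 alternatives. It was -0.58 with the replicate block and with limma-voom, -0.40 without day-0 mouse 1, -0.60 without day-21 mouse 2 and -0.56 without day-21 mouse 3. Slc6a6, the taurine carrier TauT and the member with the most counts of this list, stood at 382, 453 and 483 CPM on day 0 and at 536, 462 and 529 CPM on day 21. The groups overlapped and its log2 fold change was 0.21 (95% confidence interval -0.065 to 0.49, adjusted p = 0.19, edgeR). It was called higher with library size alone (0.60). Slc6a11, a GABA carrier of the brain, had 0 counts in every mouse.

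Carriers best known from neurons and glia were at low levels in these kidneys. Of 13 members, 7 were tested, 3 were lower, 1 was higher and 3 were not called, with a median log2 fold change of -0.41. The median was -0.16 without day-0 mouse 3 and -0.13 with the stricter filter, a mean of at least 50 counts. Slc1a2, the glial glutamate carrier GLT-1, stood at 2.31, 4.20 and 5.26 CPM on day 0 and at 10.7, 9.66 and 9.19 CPM on day 21, and rose by 1.33 on the log2 scale (SE 0.28, adjusted p = 0.0030, edgeR). Slc6a17, a vesicular carrier of neutral amino acids, stood at 28.5, 35.2 and 25.7 CPM against 21.4, 18.2 and 14.8 CPM. Its log2 fold change of -0.72 (SE 0.17, adjusted p = 0.0065, edgeR) dropped to -0.58, under the fold threshold, without day-0 mouse 2. The call was lost in 2 of 15 alternatives, over which the value ran from -0.85 to -0.33. The serotonin carrier Slc6a4 was lower at -1.03 (adjusted p = 0.021, edgeR), with 31 to 85 counts per mouse. Its call was lost in 3 of 14 alternatives, over which the value ran from -1.21 to -0.64. Among them were the fits without day-0 mouse 2 (-0.79) and without day-21 mouse 2 (-0.83).

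The glial glutamate carrier Slc1a3 was called at -0.98 (adjusted p = 0.044, edgeR) on 22 to 44 counts per mouse. That call was lost in 8 of 14 alternatives, among them the replicate block (adjusted p = 0.053) and the fits without day-0 mouse 1 or 3 or any 1 of the day-21 mice, in which it ran from -1.16 to -0.74. Slc6a15, a carrier of branched-chain amino acids and proline, and Slc7a10, the exchanger Asc-1, were not called, at -0.41 and 0.37. The glycine carrier Slc6a9 had the most counts of this list, with a log2 fold change of 0.10 that changed sign without day-0 mouse 1 or day-21 mouse 1. Of its exon bases, 27.8% lie in Ccdc24, 9.94% in Gm17114 and 0.89% in B4galt2, all on the opposite strand. Among these neighbours only B4galt2 was called, higher by 2.45. Of the 50-base words of the longest Slc6a9 transcript, 41.2% occur in other genes, so the Slc6a9 counts are uncertain. The neuron and glia markers Snap25, Syt1, Rbfox3 and Gfap summed to 0.201 to 1.24 CPM on day 0 and 0.955 to 1.41 CPM on day 21, and Snap25 was at 0 counts in every mouse.

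The remaining 16 members, less well placed by role, held 7 tested genes with 1 higher and 0 lower. The median log2 fold change was -0.21, and its sign changed to positive with library size alone (0.18), with limma-voom (0.45), with the replicate block (0.43), with the stricter filter (0.17) and without day-0 mouse 1 (0.46). Slc7a4, an orphan relative of the cationic carriers, stood at 3.71, 5.85 and 4.95 CPM on day 0 and at 7.85, 10.1 and 7.47 CPM on day 21. It was called higher at 0.80 (SE 0.24, adjusted p = 0.020, edgeR), but not without day-0 mouse 1 (0.62) or day-21 mouse 2 (0.66), and 13.3% of its exon bases lie in P2rx6. Slc38a10 had the most counts of the list and was not called, with 255, 260 and 208 CPM against 191, 197 and 200 CPM (log2 fold change -0.30, adjusted p = 0.057, edgeR).

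Slc7a12, a kidney carrier of small neutral amino acids also known as Asc-2, was spread widely on day 0. Its counts were 1088, 411 and 37 on day 0 and 527, 735 and 648 on day 21. Its log2 fold change was -0.28 (95% confidence interval -1.87 to 1.31), and it was 1.03 without day-0 mouse 1 and -0.83 without day-0 mouse 3, so no direction can be given. Slc43a3, an equilibrative carrier of purine nucleobases such as adenine, was at 0.49 (adjusted p = 0.047, edgeR), under the fold threshold. Its day-21 mice were at 70.7, 41.3 and 64.9 CPM against 41.4 to 42.8 CPM on day 0, and it was called without day-21 mouse 2 (0.69). Slc38a6 was also under the fold threshold at 0.56 (adjusted p = 0.028, edgeR), and was called without day-0 mouse 2 (0.64), with upper quartile scaling (0.65), with library size alone (0.95) and with the stricter filter (0.59). Of the 50-base words of its longest transcript, 69.9% occur in other genes, so its counts are uncertain. Slc38a4 and Slc7a6os were not called, at -0.63 and -0.21.

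In all, 19 members were not tested, and 8 of these had 0 counts in every mouse, among them Slc6a2, Slc6a11, Slc6a16, Slc6a21, Slc7a14, Slc38a5 and Slc38a8. A count of 0 allows up to 3 counts, so these genes were not detectable at this depth. Slc1a6, Slc1a7, Slc6a3, Slc6a5, Slc6a7, Slc7a15 and Slc36a3 had between 0 and 4 counts in each mouse. Slc6a14 had 3, 7 and 7 counts on day 0 and 5, 9 and 5 counts on day 21. Slc38a11 had 11, 7 and 15 counts against 6, 4 and 3 counts, and the groups did not overlap.

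**Figure D3:**
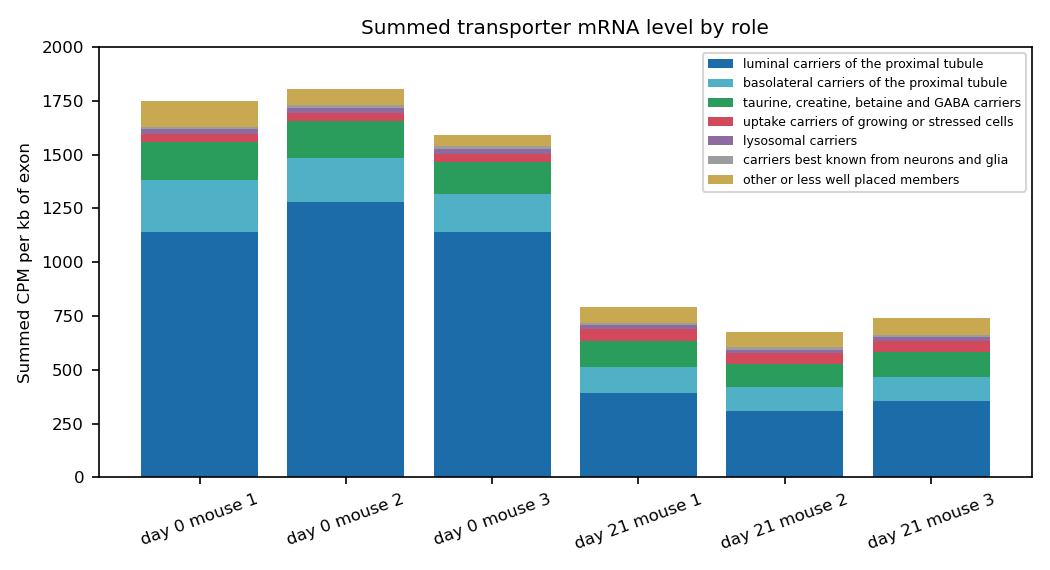
Summed level of the members of each role list in CPM per kb of exon (y axis, starting at 0), stacked for each of the 6 mice. The whole stack stands at 1592 to 1806 in the day-0 mice and at 678 to 793 in the day-21 mice, and most of the difference lies in the luminal carriers.

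Summed per kb of exon, the level of all members fell from 1715 ± 111 CPM per kb (SD, n = 3) to 736 ± 57.8 CPM per kb, and the groups did not overlap. The luminal list alone went from 1187 ± 80.0 to 352 ± 42.5 CPM per kb, and its share of the whole went from 69.3% ± 3.4 to 47.6% ± 2.1. The basolateral list went from 208 ± 30.6 to 115 ± 4.4 CPM per kb, while its share went from 12.1% to 15.6%. The uptake list was the one whose sum was higher on day 21, at 37.8 ± 0.95 against 52.2 ± 0.67 CPM per kb, and its share went from 2.21% to 7.12%. The taurine, creatine, betaine and GABA list went from 164 to 115 CPM per kb and from 9.57% to 15.7% of the whole. The lysosomal list went from 22.2 to 16.8 CPM per kb, and from 9.04 to 8.87 with overlapping groups without Slc36a1, its highest member. Without Slc6a6 the taurine, creatine, betaine and GABA sum went from 112 to 55.0 CPM per kb. Each of the sums over a whole list given so far had an exact permutation p of 0.1 (two-sided), which is the smallest that 3 mice against 3 can give. The sums of the neuron and glia list and of the less well placed members overlapped between the groups.

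**Figure D4:**
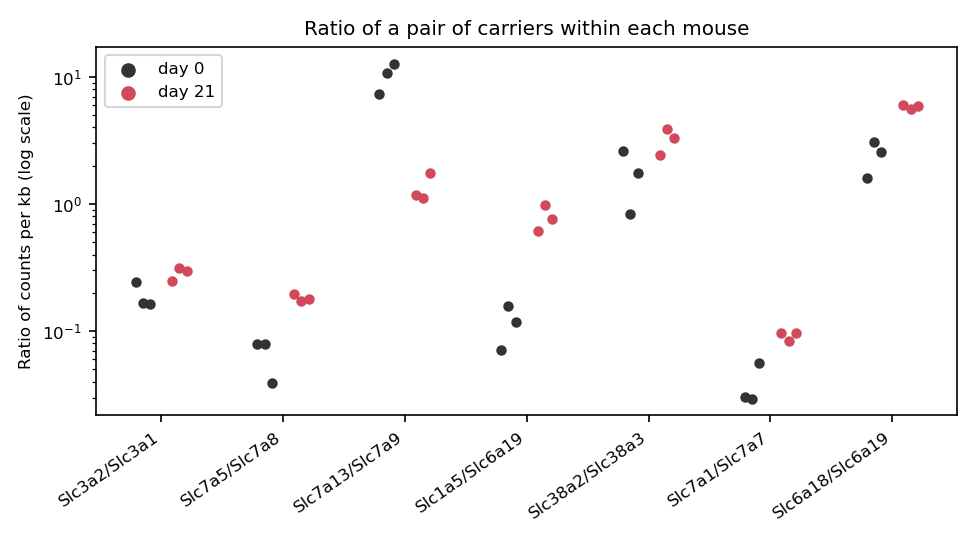
Ratio of counts per kb for 7 pairs of carriers (x axis) within each mouse, on a log scale (y axis), with 1 point per mouse. Only Slc38a2/Slc38a3 overlaps between the groups; Slc7a13/Slc7a9 is lower on day 21 and the other 5 pairs are higher.

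A ratio of a pair of genes within one library does not depend on how libraries are scaled. Of 8 pairs, 7 had counts in every mouse, and several share a gene. Slc7a13 per Slc7a9, the light chains that share rBAT, stood at 7.29, 10.7 and 12.7 on day 0 and at 1.18, 1.12 and 1.75 on day 21, a log2 change of -2.91. The ratio of Slc1a5, the glutamine exchanger, to Slc6a19 rose from 0.110 to 0.769 (geometric means), a log2 change of 2.81. The ratio of LAT1 to LAT2, Slc7a5 per Slc7a8, was 0.0793, 0.0789 and 0.0393 on day 0 and 0.196, 0.172 and 0.179 on day 21, a log2 change of 1.54. Slc7a1 per Slc7a7 differed by 1.32, Slc6a18 per Slc6a19 by 1.32 and the heavy chains Slc3a2 per Slc3a1 by 0.61. Each of these 6 pairs had an exact permutation p of 0.1, the smallest possible, and 0.117 after adjustment over 7 pairs. Slc38a2 per Slc38a3 differed by 1.02 with overlapping groups (exact permutation p = 0.2).

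The falls of the carriers were next set against the fall of the tubule markers in the same mouse. The geometric mean of the 10 proximal tubule markers was 904 CPM on day 0 and 249 CPM on day 21, and 38 members with a mean of at least 50 counts were divided by it. This marker level fell by 1.87 on the log2 scale, which lifts every gene alike on the new scale. Of the 38 members, 35 lay above their day-0 values in all day-21 mice, 2 lay below and 1 overlapped. Of 13142 tested genes with a mean of at least 50 counts, 95.3% lay above and 0.913% below, so lying above is no mark of the transporters. The members below were Slc7a13, with a log2 change of -1.93, and Slc6a19, with a log2 change of -0.42. For Slc6a19, day-0 mice 2 and 3 (-0.25 and -0.32) lay close to the day-21 mice (-0.45 to -0.37). Its log2 fold change of -2.33 was within the range of the 10 markers themselves, -2.47 to -1.28. Slc6a12 (-2.37) averaged under 50 counts and was not set on this scale. Slc6a13 overlapped, at 0.21. Slc6a20b and Slc3a1 lay above by 0.42 and 0.56. The signs of all 38 were the same when each marker was left out in turn. Each member that lay apart had an exact permutation p of 0.1, the smallest possible, and this scale was chosen after the data were seen.

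**Figure D5:**
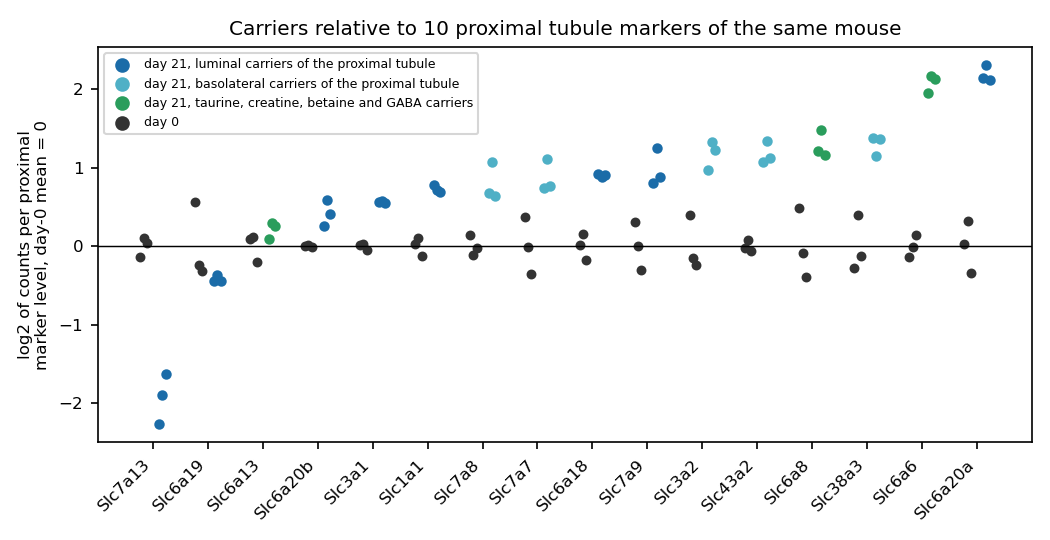
Log2 of the counts of a carrier per geometric mean of 10 proximal tubule markers in the same mouse (y axis, day-0 mean at 0), for 16 carriers (x axis), with 1 point per mouse. Slc7a13 lies at -2.27 to -1.63 in the day-21 mice, Slc6a19 just below its day-0 mice, and Slc6a13 overlaps. The other carriers lie above, as did 95.3% of the tested genes with a mean of at least 50 counts.

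Partners of the carriers were read from the same fit. Of 16 partner genes, 15 were tested, 10 were lower and 1 was higher. Cltrn, the collectrin that brings Slc6a19 and its relatives to the brush border in kidney, stood at 1359, 1237 and 1196 CPM on day 0 and at 548, 489 and 533 CPM on day 21, a fall of 1.27 on the log2 scale (adjusted p = 1.5e-05, edgeR). The brush border enzymes Ggt1 and Anpep, which release amino acids from glutathione and peptides, fell by 1.73 and 1.16, and the peptide carrier Slc15a2 by 1.25. The basolateral aromatic amino acid carrier Slc16a10 fell by 1.04. Among carriers of the mitochondrial inner membrane, Slc25a15 (ornithine), Sfxn1 (serine), Slc25a13 (aspartate and glutamate) and Slc25a22 (glutamate) fell by 1.08, 1.00, 0.94 and 0.75, and Slc25a12 was at -0.54, under the fold threshold.

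Slc15a3, a lysosomal carrier of histidine and small peptides that macrophages use, was the partner gene that was higher. It stood at 9.73, 13.4 and 6.60 CPM on day 0 and at 42.8, 47.3 and 38.6 CPM on day 21, a log2 fold change of 2.10 (SE 0.22, adjusted p = 3.6e-05, edgeR). The lysosomal cystine and cationic amino acid exporters Ctns and Pqlc2 and the carrier Slc15a4 were not called, at -0.16, 0.12 and -0.14. Slc15a1, the intestinal peptide carrier, was not tested.

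Genes of the amino acid response moved in both directions. Of 12 listed, 6 were higher, 3 lower and 3 not called. Aldh18a1, which starts proline synthesis, was higher by 2.01, the asparagine synthetase Asns by 1.31, the mitochondrial folate enzyme Mthfd2 by 1.14, Trib3 by 1.05, Atf5 by 0.65 and Phgdh, the first enzyme of serine synthesis, by 0.61. Shmt2, which interconverts serine and glycine in mitochondria, fell by 1.78, the leucine sensor Sesn2 by 1.07 and Psat1, the next enzyme of serine synthesis, by 0.67. Atf4 itself, whose activity is set mainly by translation, stood at 177, 114 and 119 CPM against 100, 109 and 110 CPM and was not called (-0.36, adjusted p = 0.095, edgeR). Ddit3 and Chac1 were not called.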

How the data were processed

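Kidney mRNA of 3 day-0 and 3 day-21 mice was analysed. The authors extracted total RNA, sequenced paired 150-base reads and deposited raw counts per gene for each mouse, without normalization. The submitters' processing notes name TopHat and mm10, and the counting program and its strand setting are not given in the sources used here. All 55450 identifiers matched GENCODE M21 (GRCm38), which supplied positions, exon lengths and gene types, and 3 antisense genes with matching symbols were left out. Groups came from the sample labels, and replicate numbers only name mice. Total counts per mouse ran from 10963849 to 14333311.

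The tools were edgeR 4.0.16 (filterByExpr, minimum count 10 and minimum total 15; TMM, quasi-likelihood test without a block, Benjamini-Hochberg over 16592 genes), limma 3.58.1 and DESeq2 1.42.0 in R 4.3.3. Figures were drawn in Python 3.11.15 with matplotlib 3.10.9. The study's thresholds for DEGs, 0.05 for the adjusted p and 1.5 for the fold, were kept. Each of the count models was tested on simulated data. Levels per kb used the union of a gene's annotated exons. Sums and ratios were compared by two-sided exact permutation tests over mice. The members and role lists were chosen with earlier results of these data known. Every luminal and basolateral member is named, as are members that failed the filter. In each other list, DEGs averaging 50 counts or more were ranked, the top 2 in each direction were named, and the member with the most counts was added. Some genes of the lists are not reported here by name. Other members, and examples of cell type markers, were chosen after their values were seen. Alternatives were other scalings, filters, tests and thresholds, a replicate block, each mouse left out, and the library without its 20 highest and mitochondrial genes. The scale per proximal tubule marker and the count without genes that share exons were added after seeing the data.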

Additional observations from a re-analysis of the deposited data

How the results depend on the processing

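Of 668 refits of single members, 597 kept direction and call, 41 lost the call, 16 gained one and 14 changed sign. Scaling by library size alone gave 5985 DEGs higher and 1338 lower, and 15 and 9 members. The member median was then 0.11, with luminal -0.74, basolateral -0.32, taurine list -0.75, uptake 0.79, lysosomal 0.23, neuron and glia -0.023 and less well placed 0.18. Under it Slc38a10 (0.090), Slc38a7 (0.28), Slc38a9 (0.18), Slc43a1 (0.30), Slc7a12 (0.11) and Slc7a6os (0.18) changed sign. With thresholds of 0.01 for the adjusted p and 2 for the fold there were 1918 DEGs higher and 1254 lower, and 2 and 9 members. Upper quartile scaling gave a member median of -0.18 and an uptake median of 0.50. A mean of at least 50 counts gave medians of 0.48 (uptake), -0.59 (taurine list) and 0.17 (less well placed), no filter gave 0.51 (uptake), and limma-voom gave 0.45 (less well placed) and 0.69 for Slc7a12. With each mouse left out, 5 to 8 members were higher and 15 to 19 lower, the uptake median ran from 0.42 to 0.60, the less well placed one from -0.27 to 0.46 and the neuron and glia one from -0.55 to -0.16. Both signs occurred, with each mouse left out, for Slc1a4 (-0.072 to 0.35), Slc43a1 (-0.36 to 0.13), Slc6a9 (-0.065 to 0.22) and Slc7a12 (-0.83 to 1.03). The replicate block gave 6 members higher and 16 lower, a median of 0.43 for the less well placed list and 0.43 for Slc7a12. The study divided its mice into groups, so the numbers name different animals on day 0 and day 21. Deviations of same-numbered mice correlated at -0.019, 0.165 and 0.0896, and those of differently numbered mice at -0.181 to 0.116. So few values cannot show whether numbers pair the samples in another way. Without members that share over 10% of exon bases, 5 were higher and 16 lower. The 7 ratios kept their direction with each mouse left out, but without Slc36a1 the lysosomal sum differed by only -0.027 on the log2 scale (exact permutation p = 0.8) in place of -0.41. The cause of these shifts was not tested. Counts under about 50 per mouse limit Slc36a2, Slc1a3 and Slc6a12. Low counts also limit Slc6a4, with a mean of 49.8 counts. On day 0 they limit Slc1a2 (23, 51 and 51 counts) and Slc7a4 (37, 71 and 48 counts).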
